A study of Danio rerio with 24 samples.

Results

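Zebrafish liver after 24 h in water with mercuric chloride (HgCl2) was set against liver of untreated fish sampled at the same time, with 3 arrays of HgCl2 livers and 3 arrays of control livers. These 6 arrays were taken by treatment and time from the 24 arrays of a study that followed the liver over 8, 24, 48 and 96 h, and the arrays of the other times entered only the estimate of the spread and, where said, as further control values. The treated group was adult wild-type fish from a local farm, 6 months to 1 year old, kept at 27 °C in 200 µg/L HgCl2 with daily renewal; the control group was fish of the same source and age in water without HgCl2. Each array held the pooled liver RNA of 4 fish in the Cy5 channel, and in the Cy3 channel a common reference made from the livers of wild-type males and females. Whether a pool held males, females or both is not stated in the sources used here, and no array had its dyes swapped. Every value below is a log2 ratio of liver sample over common reference after loess within the array, or the difference of such ratios, HgCl2 minus control; a difference of 1 is a doubling, and levels of different genes cannot be compared.

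Inorganic mercury binds thiol and selenol groups, so glutathione, thioredoxin reductase and the selenoproteins are among its best known targets. The liver makes most plasma proteins, among them the acute phase and complement proteins that respond to injury, and it folds them in the endoplasmic reticulum (ER), where a surplus of unfolded protein induces chaperones and the degradation system called ERAD. It also supplies glucose in fasting and stress, and in female fish it makes the yolk precursor vitellogenin under the control of the estrogen receptor.

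After 24 h, 6 of 8 measured ER chaperones and 6 of 13 genes listed under gluconeogenesis were higher in HgCl2 livers, as were hemopexin, ceruloplasmin and complement C3. Of 23 genes listed under drug metabolism 5 were lower, and so was the estrogen receptor gene esr1. The 6 of gluconeogenesis included the kinase sgk1 and the glucocorticoid receptor gene nr3c1, which was called on 1 of its 3 probes. The values of that probe moved largely with those of the egg envelope gene zp3, as given below. Whether it reports the receptor transcript was not tested. Of the 13, 1 was lower, the enzyme gene fbp1b. Among 16340 probes, 1080 (6.61%) were higher and 691 (4.23%) were lower in HgCl2 livers at an adjusted p under 0.05, which is the call used throughout (limma over all 24 arrays, Benjamini-Hochberg over all probes). The calls exceeded 2-fold for 580 probes that were higher and 240 that were lower, and exceeded 4-fold for 127 and 19 probes. Over the 5355 genes with a symbol, each taken by its brightest probe, 327 (6.11%) were higher and 259 (4.84%) were lower. Of all probes, 4550 (27.8%) had 3 HgCl2 arrays that did not overlap the 3 control arrays. Among the 1771 called probes only 79 overlapped, so for a called gene a lack of overlap adds little. The counts of higher probes came to 598 without HgCl2 replicate 3, 680 without HgCl2 replicate 2 and 648 without control replicate 2, and the counts of lower probes came to 415, 378 and 339 without the same arrays and to 405 without control replicate 1. When the Cy5 channel was tested alone, an alternative chosen after seeing the data, 603 probes were higher and 583 lower, and 592 of these calls were shared with the log ratios in the same direction. In that channel 4 genes each were higher in the lists of gluconeogenesis, hypoxia and thiol defence, against 7, 9 and 7 by the log ratio.

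**Figure D1:**
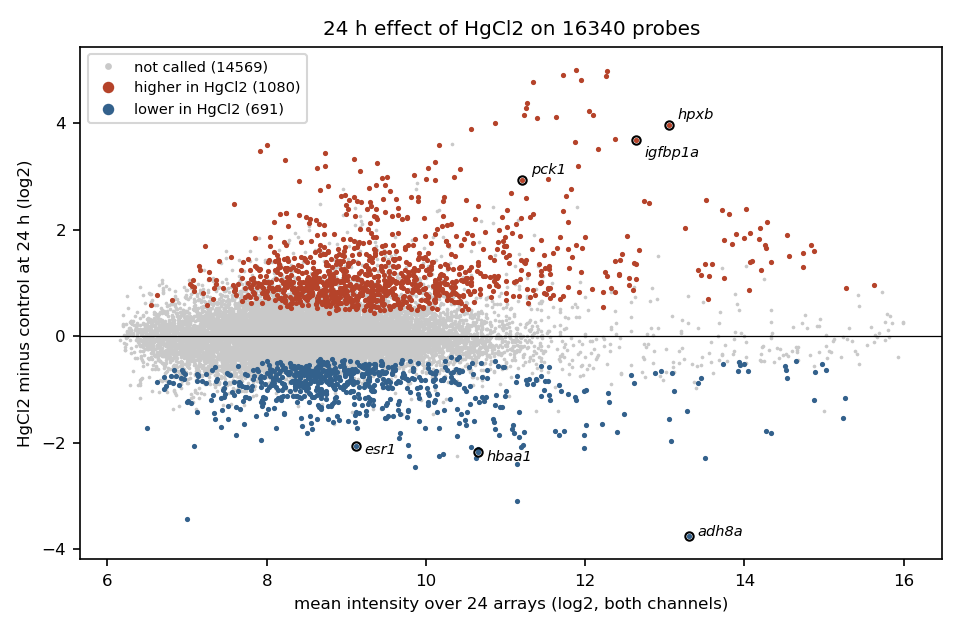
Difference between HgCl2 and control livers at 24 h (log2, vertical axis) against mean intensity over the 24 arrays (log2, horizontal axis), 1 point per probe. The 1080 probes called higher (red) and the 691 called lower (blue) stand out from those not called (grey), and 6 genes are marked by name.

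The first HgCl2 array stood apart from the other two. Its median Cy5 background was 155 intensity units, against 54 and 67 on the other HgCl2 arrays and 72, 89 and 103 on the control arrays, and 75.5% of its spots were above background in Cy5, against 91.6% and 92.1% on the other HgCl2 arrays and 85.5 to 88.5% on the control arrays. Its log ratios correlated with the other HgCl2 arrays at r = 0.394 and 0.376 across probes, which are not independent replicates, against 0.583 for the other pair and 0.603 to 0.693 among control arrays. The Cy3 channel held the same reference RNA everywhere, and its signals were centred probe by probe on the mean of the 24 arrays. These centred signals of the first HgCl2 array correlated at -0.105 and -0.207 with its own group. With the HgCl2 arrays of 8 h they correlated at 0.379, 0.578 and 0.515. Without this array 1394 probes were higher and 888 lower, and 1518 of the main calls were kept. The reference channel itself gave 317 calls (1.94%) between the 2 groups, of which 39 were also calls of the log ratio. Of the 1771 calls, 344 had a reference difference of opposite sign larger than 0.5 times the log ratio's. The centred reference signals correlated at 0.369 to 0.487 among control arrays and at 0.361 between HgCl2 replicates 2 and 3. Between HgCl2 and control arrays they correlated at -0.226 to 0.0287. Array set and treatment thus cannot be told apart, in those 344 calls or over the 6 arrays. All 9 measured hepatocyte markers were above background on all 6 arrays. So were 8 of 9 ovary markers and 8 of 9 red blood cell markers, so this count does not tell cell types apart.

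The plasma proteins hemopexin and ceruloplasmin and the acute phase regulator socs3b were higher in HgCl2 livers. Hemopexin (hpxb), which carries free heme in plasma, had log2 ratios of 0.35, 2.11 and 2.56 in HgCl2 livers, against -1.91, -2.67 and -2.29 in control livers. The groups were far apart, with the first HgCl2 array the lowest of its group, and hpxb was 15.6-fold higher (difference 3.96 ± 0.71 SE, adjusted p = 0.00136). Ceruloplasmin (cp), the copper-carrying ferroxidase of plasma, had 0.64, 1.72 and 1.69 in HgCl2 livers, against -0.52, -0.50 and -0.72 in control livers, a 3.82-fold rise (1.93 ± 0.38 SE, adjusted p = 0.00272). The cytokine feedback inhibitor socs3b had 0.84, 2.54 and 3.02 in HgCl2 livers, against -0.68, -0.50 and -0.25 in control livers, and rose 6.11-fold (2.61 ± 0.45 SE, adjusted p = 0.000954). None of these 3 genes overlapped between the groups, as held for nearly all called probes, and for hpxb this was a condition of its choice. All 3 calls were kept without each of the 6 arrays. For cp, however, the highest control array of another time stood at 1.01, above HgCl2 replicate 1.

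The list of acute phase and coagulation did not hold hpxb. Of its 16 measured genes, 6 were higher and 1 was lower (0 without HgCl2 replicate 2 or control replicate 2, and 2 without HgCl2 replicate 1), with a median difference of 0.39, against 0.000463 over all genes. The rises were in the signalling part of the list, where 5 of 8 genes were higher: socs3b, its paralog socs3a, the cytokine receptor kinase jak1 (3.33-fold, 1.74 ± 0.28 SE, adjusted p = 0.000566), the transcription factor stat3 that such kinases activate, and cebpg. The exception was cebpa, a transcription factor of hepatocyte differentiation, at -1.16, -1.78 and 0.26 in HgCl2 livers, against 0.29, 0.88 and 0.91 in control livers (-1.59 ± 0.39 SE, adjusted p = 0.0118). Its 2 low HgCl2 arrays made the difference, and the call was lost without HgCl2 replicate 2 (-1.14, adjusted p = 0.0825) or control replicate 2 (-1.49, adjusted p = 0.0518). The calls of socs3a were likewise lost without HgCl2 replicate 2 or 3 (adjusted p up to 0.0909). The 4 measured serpins and inhibitors ranged from -0.59 to -0.11 and none was called, and no fibrinogen gene was measured under a symbol.

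Complement component C3, on which all routes of complement activation meet, was represented by 3 paralogs and all were called higher; they were 3 of 6 measured complement genes, with a list median of 0.90. The probe of c3a.1 had 1.79, 2.96 and 2.68 in HgCl2 livers, against 0.50, 0.25 and -0.21 in control livers, a 4.91-fold rise (2.29 ± 0.39 SE, adjusted p = 0.000836). That of c3a.3 had 1.5, 1.80 and 1.4 in HgCl2 livers, against -0.47, -0.99 and -0.90 in control livers (5.11-fold, 2.35 ± 0.42 SE, adjusted p = 0.00123), although 1 of the 9 control arrays of other times reached 1.77. The call of c3a.2 was lost without 4 of the 6 arrays in turn, HgCl2 replicates 1 and 3 and control replicates 2 and 3 (adjusted p up to 0.09). Close paralogs can hybridise to each other's probes, so the 3 are not certain to be separate measurements.

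**Figure D2:**
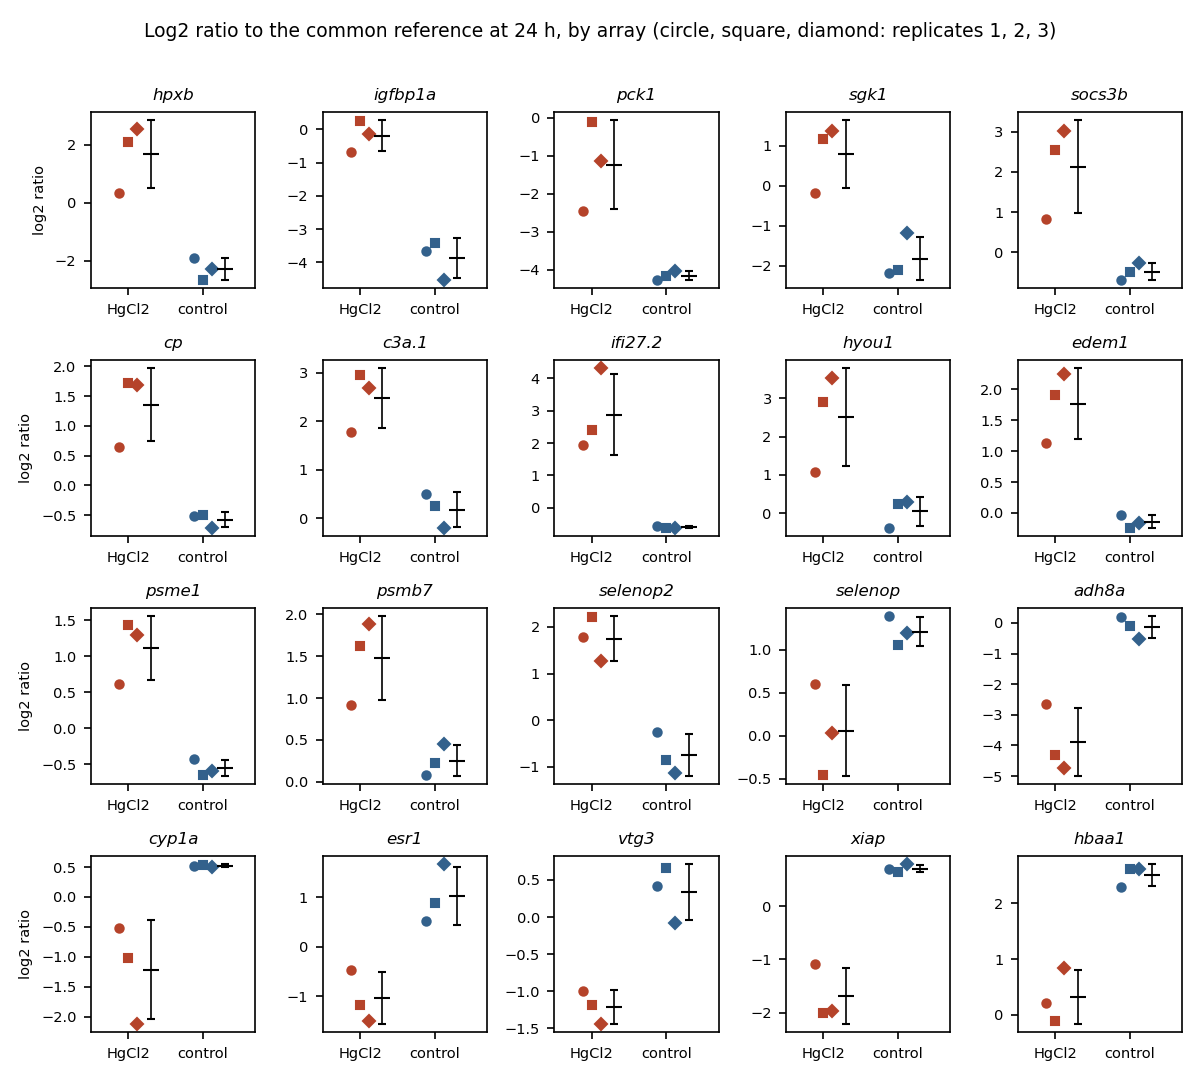
Log2 ratio of liver sample over common reference (vertical axes, each panel with its own scale) on the 3 HgCl2 arrays (red, left) and the 3 control arrays (blue, right) of 24 h for 20 genes; circles, squares and diamonds are replicates 1, 2 and 3, and the bars give mean ± SD (n = 3 each). In every panel the HgCl2 arrays lie wholly on one side of the control arrays, which was required of genes ranked among the largest rises and falls. In most panels the first HgCl2 array is the nearest to control, while for selenop2 and hbaa1 the third is.

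ER chaperones and ERAD components rose as a group. Of 28 measured genes of ER stress and folding, 13 were higher and none was lower, with a median of 0.74, the second highest median of the 27 lists after complement. The rises lay with the chaperones (6 of 8, median 1.56) and ERAD (4 of 6, median 1.01). Of the 6 genes listed as stress sensors and factors only chac1, an enzyme gene and neither sensor nor transcription factor, was called, and the median was -0.16. The ER chaperone hyou1 had 1.07, 2.89 and 3.53 in HgCl2 livers, against -0.39, 0.25 and 0.29 in control livers, without overlap, a 5.45-fold rise (2.45 ± 0.44 SE, adjusted p = 0.00127). The mannosidase-like edem1, which hands misfolded glycoproteins to ERAD, had 1.13, 1.92 and 2.25 in HgCl2 livers, against -0.03, -0.24 and -0.17 in control livers (3.76-fold, 1.91 ± 0.26 SE, adjusted p = 0.000135). Both groups were again clear of each other. In the Cy5 channel alone the call of edem1 was kept (1.47, adjusted p = 0.00477) and that of hyou1 was lost (2.22, adjusted p = 0.0685).

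Further chaperones followed the same order of arrays. The lectin chaperone calnexin (canx) had 0.51, 1.19 and 1.69 in HgCl2 livers, against -0.95, -0.71 and -0.08 in control livers (3.27-fold, 1.71 ± 0.26 SE, adjusted p = 0.000416). The co-chaperone dnajb11 was 3.35-fold higher (1.74 ± 0.31 SE, adjusted p = 0.00129) and sdf2l1, a member of the same ER chaperone complex, 4.41-fold higher (2.14 ± 0.41 SE, adjusted p = 0.00208). The glutathione-degrading enzyme chac1, a target of the unfolded protein response, was 3.68-fold higher (1.88 ± 0.35 SE, adjusted p = 0.00177). In the ERAD group herpud1, a membrane component of the pathway, was 1.92-fold higher (0.94 ± 0.17 SE, adjusted p = 0.0014). The list's count was 10 without HgCl2 replicate 3 and 15 without HgCl2 replicate 1, and in the Cy5 channel alone 6 of its genes were higher and 1, the disulfide isomerase family gene pdia5, which the log ratio did not call, was lower. Of 26 genes of ER translocation, glycosylation and vesicle coats 4 were higher, which became 8 without HgCl2 replicate 1 and 0 without HgCl2 replicate 2 or 3 or control replicate 1, and of 28 cytosolic heat shock proteins and chaperonins 3 were higher and 1 was lower.

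**Figure D3:**
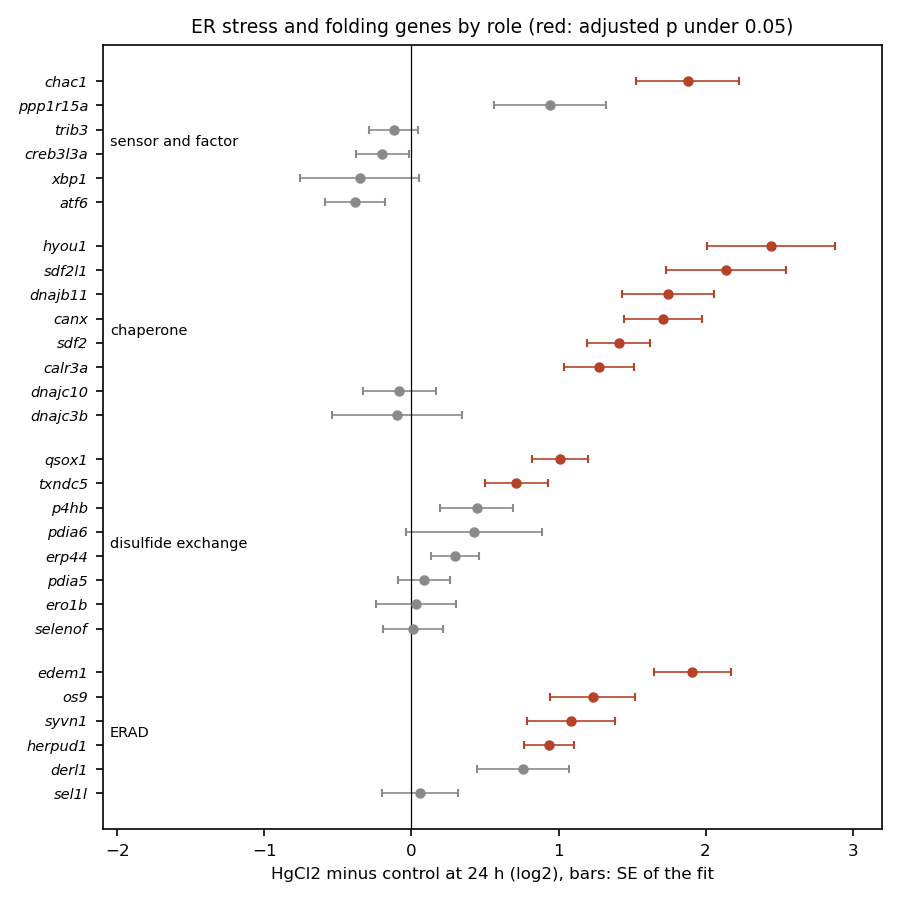
Difference between HgCl2 and control livers at 24 h (log2, horizontal axis) for the 28 measured genes of ER stress and folding, ordered by role; points are fitted differences, bars the SE of the fit, and red marks an adjusted p under 0.05. The called genes are 6 chaperones, 4 ERAD genes, 2 genes of disulfide exchange and chac1, and none of the 28 was called lower.

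Subunits of the proteasome and of antigen processing rose by smaller amounts. The proteasome activator subunit psme1 had 0.61, 1.43 and 1.29 in HgCl2 livers, against -0.42, -0.64 and -0.59 in control livers, a 3.17-fold rise without overlap (1.67 ± 0.29 SE, adjusted p = 0.001). Its partner psme2 had 0.75, 1.51 and 1.48 in HgCl2 livers, against 0.37, -0.14 and 0.14 in control livers (2.18-fold, 1.12 ± 0.23 SE, adjusted p = 0.00369). Of the 20S core, psmb7 (2.33-fold, 1.22 ± 0.22 SE, adjusted p = 0.0012) and psmb4 (2.12-fold, 1.09 ± 0.20 SE, adjusted p = 0.0017) were higher, 2 of 13 core and regulatory genes with a list median of 0.51. Without HgCl2 replicate 1 this count was 8 of 13. In the Cy5 channel alone psme1 (adjusted p = 0.012) and psmb4 (adjusted p = 0.0294) were still called. The calls of psme2 (adjusted p = 0.385) and psmb7 (adjusted p = 0.148) were lost there. In the list of immunoproteasome and antigen presentation 8 of 22 genes were higher and 2 lower, with 4 higher without HgCl2 replicate 3 and 5 without control replicate 2.

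The interferon-responsive members of that list did not all move one way. The interferon-inducible gene ifi44a8 was 4.31-fold higher (2.11 ± 0.40 SE, adjusted p = 0.00193), and a further one outside the list, ifi27.2, had 1.93, 2.39 and 4.30 in HgCl2 livers, against -0.57, -0.62 and -0.63 in control livers, where it was not well above background on any array. For a gene dim on all arrays of a group a bound is given, taken in the sample channel and set by the lowest signal well above background, and in the Cy5 channel ifi27.2 was at least 13.8-fold higher in HgCl2 livers, beside an 11.2-fold difference of the log ratios as measured (adjusted p = 0.00462). The guanylate-binding protein gene gbp4 was lower by 1.24 ± 0.22 SE (adjusted p = 0.0012). The MHC class II invariant chain cd74a, a gene of antigen-presenting leukocytes, was also lower (-1.02 ± 0.22 SE, adjusted p = 0.00477). In pooled tissue fewer cells of a type and less RNA per cell cannot be told apart, here or for the blood and pancreas genes below. Of 14 leukocyte markers 1 was higher and 1, cd74a, was lower, with a median of 0.44, and their part in the rise of the immune genes was not tested.

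For 3 genes of these pathways the study designed real-time PCR primers whose accession matches a probe and whose gene passed the test here. The other genes with a matching accession, ube2na (0.58 ± 0.29 SE, adjusted p = 0.215) and apom (0.64 ± 0.22 SE, adjusted p = 0.0705), were not called. The primers of the 3 called genes are printed because they fix which transcript was meant, each written 5′ to 3′. The genes were chosen by the study with these arrays in hand, so their direction is not independent evidence.
psme2 sense: cagaggacgaggagatggag
psme2 antisense: cgactttggtcttcacagca
malt2 sense: gcctctgaaacaacctcagc
malt2 antisense: cgctgaaggatgaagagtcc
gsk3ab sense: tgggaaagtgacgacagtag
gsk3ab antisense: gaagaagtagcgtagcctgac
Besides psme2 these were malt2, a MALT1-type paracaspase gene of NF-kappa B signalling, at 0.67, 0.65 and 0.10 in HgCl2 livers, against -0.45, -0.80 and -0.63 in control livers (2.14-fold, 1.1 ± 0.21 SE, adjusted p = 0.00186), and gsk3ab, a kinase that inhibits glycogen synthase. The gsk3ab probe had 0.19, 0.23 and 0.40 in HgCl2 livers, against -0.36, -0.36 and -0.11 in control livers, a small 1.47-fold rise (0.55 ± 0.15 SE, adjusted p = 0.0214). Its groups did not overlap, but the call was lost without HgCl2 replicate 3 or control replicate 1 or 2 (adjusted p up to 0.0906). In the Cy5 channel alone none of these genes was called. The Cy5 differences were 0.57 for psme2 (adjusted p = 0.385), 0.87 for malt2 (adjusted p = 0.0759) and 0.54 for gsk3ab (adjusted p = 0.301). The reference difference of psme2 was -0.55.

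The growth factor binding protein igfbp1a and the gluconeogenic enzyme pck1 were higher in HgCl2 livers. The binding protein igfbp1a, which restrains insulin-like growth factors and is induced by fasting and low oxygen in zebrafish, had -0.68, 0.25 and -0.15 in HgCl2 livers, against -3.66, -3.41 and -4.54 in control livers, a 12.8-fold rise (3.68 ± 0.48 SE, adjusted p = 0.000101). No HgCl2 array came near the control range, and the highest control array of another time stood at -1.51. Phosphoenolpyruvate carboxykinase (pck1), the first committed enzyme of gluconeogenesis, had -2.44, -0.12 and -1.14 in HgCl2 livers, against -4.27, -4.17 and -4.04 in control livers (7.6-fold, 2.93 ± 0.67 SE, adjusted p = 0.00737). The 3 HgCl2 arrays of pck1 were spread widely above tight controls, and the call was lost without HgCl2 replicate 2 (2.37, adjusted p = 0.0506).

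Of 17 genes of gluconeogenesis and glycogen 7 were higher and 1 lower, with a median of 0.38, and the higher count was 4 without HgCl2 replicate 2 or control replicate 1. The glucocorticoid-induced kinase sgk1 had -0.18, 1.18 and 1.38 in HgCl2 livers, against -2.17, -2.1 and -1.19 in control livers (6.11-fold, 2.61 ± 0.47 SE, adjusted p = 0.00129). The glucose-6-phosphate transporter slc37a4a, which brings its substrate into the ER for the release of glucose, was 3.46-fold higher (1.79 ± 0.28 SE, adjusted p = 0.000462), and the transaminase gpt, which makes pyruvate from alanine, 2.35-fold higher (1.23 ± 0.25 SE, adjusted p = 0.00304). The lower one, fbp1b, a fructose-bisphosphatase, fell by 1.47 ± 0.41 SE (adjusted p = 0.0257), a call that was lost without HgCl2 replicate 2 or 3 or control replicate 1 or 2. The glucocorticoid receptor gene nr3c1 was called higher on its brightest probe at 1.66, 1.66 and 1.0 in HgCl2 livers, against -3.38, -2.29 and -2.67 in control livers (4.22 ± 1.11 SE, adjusted p = 0.0183). Its 2 other probes gave -0.25 and -0.02 and were not called, the call was lost without HgCl2 replicate 2 (4.11, adjusted p = 0.0587) or control replicate 1 (3.92, adjusted p = 0.0668), and the 9 control arrays of other times ran from -3.40 to 1.2. The called nr3c1 probe moved largely with that of zp3, an egg envelope gene described below, though not in the same order within every group. On the control arrays of 48 h it had 1.2, -2.83 and -1.69, against 0.73, -2.1 and -0.82 for zp3. On the HgCl2 arrays of 8 h it had -2.17, 1.07 and 1.49, against -2.12, 0.51 and 1.1 for zp3. Whether this probe reports the receptor transcript was not tested.

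Of 29 genes of hypoxia and glycolysis 9 were higher and 1 lower (0 without any 1 of the arrays other than HgCl2 replicate 1), with a median of 0.19, and the higher count came to 5 without HgCl2 replicate 3 and 6 without control replicate 1. Besides igfbp1a, the hypoxia-inducible factor paralog hif1al had -0.96, -0.80 and -0.99 in HgCl2 livers, against -2.74, -2.95 and -3.35 in control livers, with no overlap (4.27-fold, 2.09 ± 0.33 SE, adjusted p = 0.000416). The lactate dehydrogenase subunits ldha (2.52-fold, 1.33 ± 0.30 SE, adjusted p = 0.00682) and ldhba (2.2-fold, 1.14 ± 0.22 SE, adjusted p = 0.00217) were both higher. The monocarboxylate transporter family gene slc16a9a had 1.16, 1.68 and 3.23 in HgCl2 livers, against -1.25, -1.55 and -0.87 in control livers (9.49-fold, 3.25 ± 0.59 SE, adjusted p = 0.0015). Of 22 genes of amino acid breakdown 5 were higher and none lower (2 without HgCl2 replicate 2 or 3 or control replicate 2 or 3), and of 14 genes of the respiratory chain 1, the complex I subunit ndufb8, was lower.

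**Figure D4:**
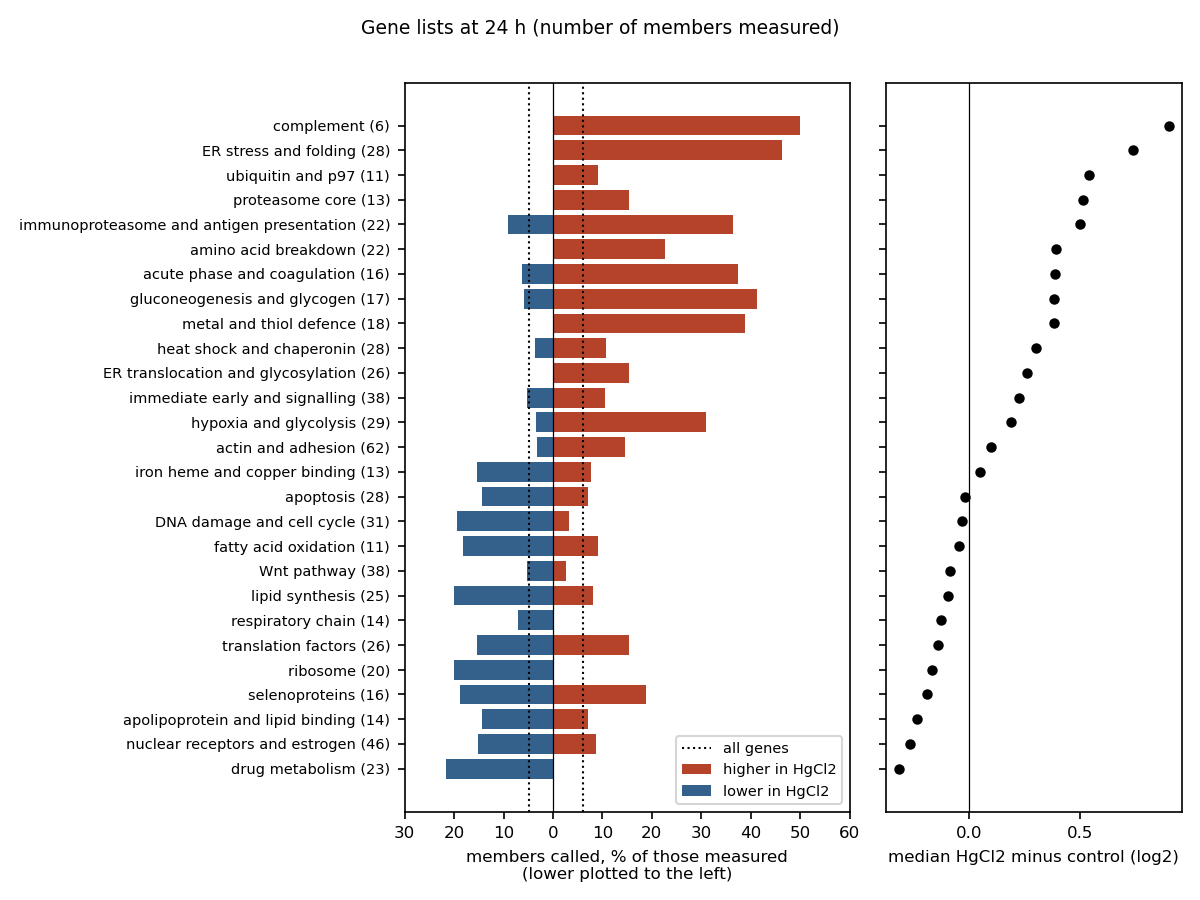
Left, the members of each of the 27 gene lists called higher (red, to the right) or lower (blue, to the left) in HgCl2 livers, as a percentage of those measured (the number in parentheses), with dotted lines at the shares over all 5355 genes, 6.11% and 4.84%; right, the list's median difference (log2). Complement and ER stress and folding have the highest medians and no member called lower, and drug metabolism has no member called higher.

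The thiol and selenium genes, the chemical targets of mercury, were divided. Of 18 genes of metal and thiol defence 7 were higher and none lower, with a median of 0.38, but the count was 3 without any one of HgCl2 replicates 2 and 3 and the 3 control arrays. The 7 included chac1, the glutathione-degrading enzyme named above, and so did the 3. Thioredoxin reductase 3 (txnrd3) had 1.58, 1.64 and 1.80 in HgCl2 livers, against -1.31, -0.69 and -0.79 in control livers (6.09-fold, 2.61 ± 0.60 SE, adjusted p = 0.00805). The microsomal glutathione transferase mgst3b had 2.38, 2.42 and 2.60 in HgCl2 livers, against 0.17, -0.04 and 0.15 in control livers (5.19-fold, 2.38 ± 0.51 SE, adjusted p = 0.00462). Both had tight, well separated groups and kept the call without each array, though control arrays of other times reached 1.24 for txnrd3 and 2.72 for mgst3b. The rate-limiting subunit of glutathione synthesis, gclc, was 1.44-fold higher (0.52 ± 0.17 SE, adjusted p = 0.049) and lost the call without any one of the 6 arrays (adjusted p up to 0.154). No metallothionein was measured under a symbol.

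The paralogs of selenoprotein P, the liver's plasma carrier of selenium, moved in opposite directions. The selenop2 probe had 1.77, 2.21 and 1.26 in HgCl2 livers, against -0.25, -0.86 and -1.14 in control livers, a 5.65-fold rise (2.5 ± 0.36 SE, adjusted p = 0.000228). The selenop probe had 0.61, -0.46 and 0.03 in HgCl2 livers, against 1.39, 1.05 and 1.2 in control livers, and fell by 1.15 ± 0.25 SE (adjusted p = 0.00551). Neither gene's groups overlapped and both calls were kept without each array, but the 9 control arrays of other times ran from 0.08 to 1.03 for selenop, a range that held HgCl2 replicate 1. The methionine sulfoxide reductase msrb1a, also a selenoprotein, was lower by both of its probes (-0.97 ± 0.23 SE for the brighter, adjusted p = 0.00943, or 0.0567 without HgCl2 replicate 3). Over the 16 measured genes of the list, 14 selenoproteins and 2 of selenium use, 3 were higher and 3 lower, with a median of -0.19, and the lower count was 1 without HgCl2 replicate 3 and 2 without any other array.

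Of 23 measured genes of drug metabolism none was higher and 5 were lower, with a median of -0.32, and the lower count was 8 without HgCl2 replicate 1 and 3 without HgCl2 replicate 3 or control replicate 1. The alcohol dehydrogenase adh8a had -2.63, -4.32 and -4.74 in HgCl2 livers, against 0.19, -0.11 and -0.51 in control livers, and was 13.5-fold lower (-3.75 ± 0.50 SE, adjusted p = 0.000115). This was the deepest fall of any named gene, and the lowest of the 9 control arrays of other times stood at -0.74. The aryl hydrocarbon receptor target cyp1a had -0.51, -1.02 and -2.13 in HgCl2 livers, against 0.52, 0.54 and 0.50 in control livers (-1.74 ± 0.33 SE, adjusted p = 0.00201, with both of its probes called). The carbohydrate sulfotransferase chst6, which the list counts with the conjugating enzymes, fell by 2.1 ± 0.33 SE (adjusted p = 0.000453). Its lowest control array of another time stood at -1.65, below HgCl2 replicates 1 and 2 at -1.38 and -1.51. The falls of cyp2k6 (-1.89 ± 0.49 SE, adjusted p = 0.0165) and cyp2ad2 (-1.62 ± 0.43 SE, adjusted p = 0.0177) were each lost without HgCl2 replicate 3 (adjusted p = 0.101 and 0.106) or control replicate 1, that of cyp2k6 also without HgCl2 replicate 2 or control replicate 3, and that of cyp2ad2 also without control replicate 2. Of the 9 hepatocyte markers, cyp2ad2 among them, 1 was higher and 2 were lower, with a median of -0.39 and a mean log2 ratio of 0.273, -0.0522 and -0.107 on the HgCl2 arrays, against 0.505, 0.361 and 0.107 on the control arrays. Their mean ran from -0.152 to 0.354 on the 9 control arrays of other times, a range that held all 3 HgCl2 arrays. The part of these markers in the falls was not tested.

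Among 6 measured genes listed as vitellogenin and estrogen-responsive 2 were higher and 2 lower, with a median of 0.44. The higher ones, zp3a.1 and zp3, are egg envelope genes that the list of ovary markers also holds. The lower ones were nots and vtg3, and the receptor gene was lower too. The estrogen receptor gene esr1 had -0.47, -1.17 and -1.5 in HgCl2 livers, against 0.51, 0.88 and 1.66 in control livers (-2.06 ± 0.49 SE, adjusted p = 0.00959), and its call was lost without HgCl2 replicate 3 (-1.84, adjusted p = 0.052) or control replicate 3 (-1.74, adjusted p = 0.053). Nothepsin (nots), an aspartic protease of female fish liver, had 0.04, -0.27 and -0.21 in HgCl2 livers, against 1.77, 1.98 and 1.36 in control livers (-1.85 ± 0.43 SE, adjusted p = 0.00812). The vitellogenin gene vtg3 had -1.0, -1.19 and -1.45 in HgCl2 livers, against 0.42, 0.66 and -0.08 in control livers, where its spot was saturated, so that it was at least 2.6-fold lower in HgCl2 livers (adjusted p = 0.0198). The groups of these 3 genes did not overlap, but esr1 and nots are in the ranking of largest falls, which admitted only genes without overlap. The genes nots and vtg3 also varied among the 9 control arrays of other times, from -0.66 to 2.13 and from -1.96 to 0.06, and the vtg3 call was lost without 4 of the 6 arrays, HgCl2 replicates 2 and 3 and control replicates 1 and 2 (adjusted p up to 0.0868). The sex of the pools is not given and its part was not tested.

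The egg envelope genes zp3a.1 and zp3 went the other way and were among the largest rises. The zp3a.1 probe had 0.92, 0.24 and -0.32 in HgCl2 livers, against -4.18, -2.96 and -4.04 in control livers (4.01 ± 1.04 SE, adjusted p = 0.0163), and the zp3 probe had 1.35, 1.62 and 0.72 in HgCl2 livers, against -2.73, -2.03 and -2.5 in control livers (3.65 ± 0.99 SE, adjusted p = 0.0208). Of 9 measured markers of ovary 3 were higher, these and cldnd, and none was lower, with a median of 1.93. Their mean log2 ratio was 0.63, 0.678 and 0.0793 on the HgCl2 arrays, against -1.64, -1.21 and -1.57 on the control arrays, and it ran from -1.72 to 0.21 on the 9 control arrays of other times. The mitotic spindle gene aspm, with the largest difference of all named genes, had 2.00, 2.21 and 1.21 in HgCl2 livers, against -3.57, -1.87 and -2.31 in control livers (4.39 ± 1.2 SE, adjusted p = 0.0222), and -3.01 to 1.94 on the other control arrays; its other probe gave -0.47 and was not called. The call of aspm was lost without HgCl2 replicate 2 or control replicate 1 (adjusted p up to 0.0878), that of zp3a.1 without control replicate 1 or 3 (adjusted p up to 0.0583), and that of zp3 without any of these 3 arrays (adjusted p up to 0.0728). Over all probes 1266 (7.75%) had the 3 HgCl2 arrays outside the range of all 12 control arrays of the study, and 835 (47.1%) of the 1771 calls and 78 of the 145 called named genes were among them.

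**Figure D5:**
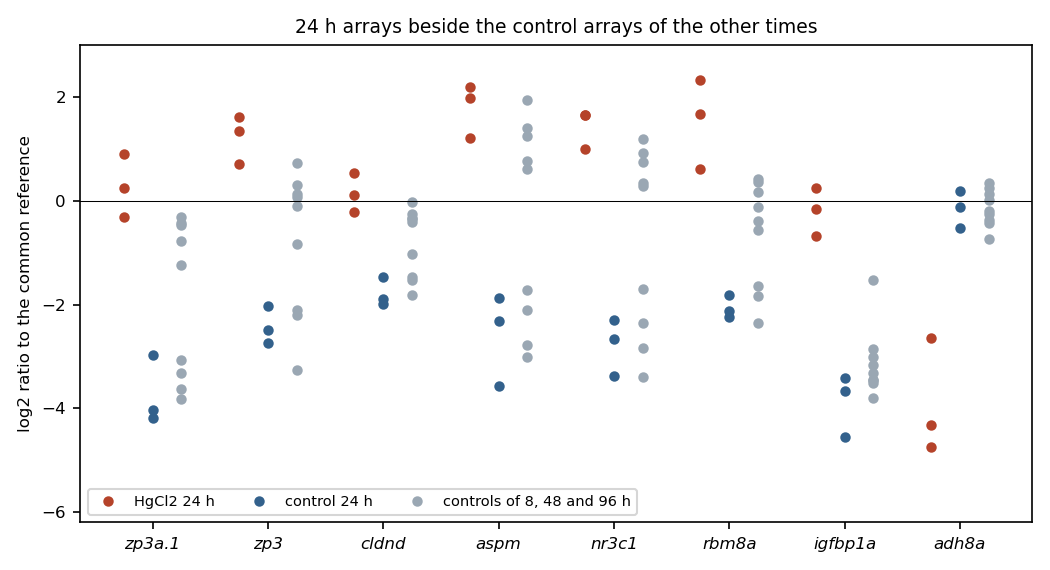
Log2 ratio to the common reference (vertical axis) of 8 genes on the 3 HgCl2 arrays of 24 h (red), the 3 control arrays of 24 h (blue) and the 9 control arrays of 8, 48 and 96 h (grey), 1 point per array. For zp3, aspm and nr3c1 the other control arrays reach up to or close to the HgCl2 arrays, while igfbp1a and adh8a on HgCl2 arrays lie outside all controls.

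Some genes of lipid synthesis were higher and others lower. Of 25 genes of lipid synthesis 2 were higher and 5 lower (median -0.10; 0 to 3 higher and 4 or 5 lower with 1 array left out), and the acetyl-CoA carboxylase gene acacb, of a rate-limiting enzyme for malonyl-CoA, rose 3.24-fold (1.7 ± 0.43 SE, adjusted p = 0.0133, or 0.0681 without HgCl2 replicate 3). Apolipoprotein A-I (apoa1a), the main protein of high density lipoprotein, had 0.86, 1.30 and 0.80 in HgCl2 livers, against -0.91, -0.45 and -0.20 in control livers (2.84-fold, 1.5 ± 0.21 SE, adjusted p = 0.000178). The choline phosphotransferase chpt1 (-1.21 ± 0.23 SE, adjusted p = 0.002) and the choline kinase chka (-2.26 ± 0.45 SE, adjusted p = 0.00303), both of phosphatidylcholine synthesis, were lower. The desaturase fads2 was called lower at -0.50, -0.89 and -1.13 in HgCl2 livers, against -0.19, 1.73 and 1.35 in control livers (-1.80 ± 0.38 SE, adjusted p = 0.00423), while its Cy5 signal differed by 0.21 and its reference signal by 2.02. Of 11 genes of fatty acid oxidation 1 was higher (0 without any 1 of the arrays other than HgCl2 replicate 1) and 2 lower (4 without HgCl2 replicate 1).

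The caspase inhibitor xiap, the inflammasome adaptor pycard and the mitotic kinase cdk1 were lower in HgCl2 livers. The caspase inhibitor xiap had -1.08, -2.02 and -1.98 in HgCl2 livers, against 0.70, 0.63 and 0.78 in control livers (-2.40 ± 0.43 SE, adjusted p = 0.00129). The inflammasome adaptor pycard had -0.14, -0.56 and -0.34 in HgCl2 livers, against 1.91, 1.77 and 1.54 in control livers (-2.09 ± 0.44 SE, adjusted p = 0.00428). Both ranked among the largest falls, a rank open only to genes without overlap at 24 h. Both reached low values on other control arrays, down to -1.90 for xiap and -0.81 for pycard. Of 28 apoptosis genes 2 were higher and 4 lower, with a median of -0.02; the higher count was 6 without HgCl2 replicate 1 and 1 without HgCl2 replicate 2 or 3 or control replicate 2, and none of the 12 genes of the intrinsic route was called. The mitotic kinase cdk1 had -0.40, -0.54 and -0.75 in HgCl2 livers, against 0.32, 1.06 and 0.68 in control livers (-1.24 ± 0.23 SE, adjusted p = 0.0015), 1 of 6 genes called lower among 31 of DNA damage and the cell cycle, where 1 was higher (0 to 2 with 1 array left out). The nucleotide excision repair gene ercc8 was lower by 1.24 ± 0.21 SE (adjusted p = 0.000708), and the G1 cyclin ccnd1 by 0.57 ± 0.14 SE on its brighter probe (adjusted p = 0.0115). In the Cy5 channel alone none of the 31 was lower and 1 was higher, with adjusted p of 0.113 for cdk1, 0.406 for ercc8 and 0.414 for ccnd1, while xiap and pycard were still called.

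Structural genes showed rises of actin and of intermediate filaments. The beta-actin gene actb1 had 0.51, 1.5 and 2.02 in HgCl2 livers, against -0.70, -0.93 and -0.50 in control livers (4.15-fold, 2.05 ± 0.39 SE, adjusted p = 0.00186). The 172 beta-actin control spots, which were kept out of the fit, had median log2 ratios of 0.373, 1.52 and 1.69 on the HgCl2 arrays, against 0.606, -0.138 and 0.00628 on the control arrays, so these overlapped on HgCl2 replicate 1. The actin-severing protein cofilin (cfl1) was 2.43-fold higher (1.28 ± 0.23 SE, adjusted p = 0.00111). Peripherin (prph), a neuronal intermediate filament protein, had 2.06, 1.93 and 1.67 in HgCl2 livers, against -0.16, 0.14 and -0.11 in control livers, with the lowest adjusted p of the named genes (3.81-fold, 1.93 ± 0.22 SE, adjusted p = 4.26e-05). The keratin gene krt8, also of intermediate filaments, was called higher (2.32-fold, 1.22 ± 0.38 SE, adjusted p = 0.0442). That call was lost without HgCl2 replicate 2 or 3 or control replicate 2 or 3 (adjusted p up to 0.207). Cadherin 1 (cdh1), which joins epithelial cells, was lower by 0.90 ± 0.21 SE (adjusted p = 0.00817, or 0.0591 without control replicate 2). Of 62 genes of actin and adhesion 9 were higher and 2 lower, with 5 higher without HgCl2 replicate 2 or 3 or control replicate 2.

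The counts of the remaining lists are to be read beside the shares over all genes, 6.11% higher and 4.84% lower. Of 13 genes listed under iron, heme and copper binding, 1, cp, was higher and 2, slc11a2 and ftr82, were lower. The list did not hold the heme carrier hpxb, which was also higher. By its symbol ftr82 is of the finTRIM family and not a metal carrier. Its call was lost without control replicate 1 or 2, which left 1 lower. Of 11 genes of ubiquitin conjugation and p97 only ube2v2 was higher (1.6-fold, 0.68 ± 0.14 SE, adjusted p = 0.00295), and without HgCl2 replicate 1 both of these higher counts were 3. Of 14 apolipoproteins and lipid-binding proteins 1 was higher (2 without control replicate 1) and 2 were lower (5 without HgCl2 replicate 1, and 1 without HgCl2 replicate 2 or 3 or control replicate 1 or 2). Of 20 ribosomal names 4 were lower and none higher, with a median of -0.17 that became -0.49 with 7 calls under median centring, and 0 or 1 lower without HgCl2 replicate 2 or 3 or control replicate 2 or 3. Of 26 translation factors 4 were higher (0 without HgCl2 replicate 3, and 2 without HgCl2 replicate 2 or control replicate 1 or 2) and 4 lower (2 without HgCl2 replicate 3 or control replicate 2), among them the translation inhibitor pdcd4a (-1.64 ± 0.28 SE, adjusted p = 0.000959). Of 38 immediate early and signalling genes 4 were higher and 2 lower, and of 38 genes of the Wnt pathway 1 was higher (0 without HgCl2 replicate 3 or control replicate 1 or 2) and 2 lower (0 without HgCl2 replicate 2 or control replicate 1 or 2, and 1 without control replicate 3). Of 46 nuclear receptor and estrogen-related genes 4 were higher and 7 lower. The higher count was 1 without control replicate 1 and 2 without HgCl2 replicate 2 or control replicate 3, and the lower count was 1 to 3 without any 1 of the arrays other than HgCl2 replicate 1. The retinoid receptor rxrab was called higher (1.82 ± 0.33 SE, adjusted p = 0.00145), with a Cy5 difference of 0.35 and a reference difference of -1.47.

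Globin transcripts fell. The alpha globin hbaa1 had 0.21, -0.11 and 0.85 in HgCl2 livers, against 2.28, 2.62 and 2.61 in control livers (-2.19 ± 0.37 SE, adjusted p = 0.00083), and the beta globin hbba1 fell by 1.74 ± 0.35 SE (adjusted p = 0.0031). All 9 measured red blood cell markers had negative differences, 2 of them called, and their mean log2 ratio was 0.0376, -0.376 and -0.0857 on the HgCl2 arrays, against 0.469, 0.599 and 0.472 on the control arrays. On the 9 control arrays of other times this mean ran from 0.0199 to 0.687, a range that held HgCl2 replicate 1. All 5 exocrine pancreas markers likewise had negative differences, 1 of them called, the carboxypeptidase cpa5 (-1.67 ± 0.40 SE, adjusted p = 0.0108, or 0.0526 without HgCl2 replicate 2), and their mean ran at -0.136, -0.496 and -0.788 on the HgCl2 arrays, against 0.213, 0.583 and 0.7 on the control arrays. The pancreas mean ran from -1.08 to 0.784 on the 9 control arrays of other times, a range that held all 3 HgCl2 arrays. In zebrafish the pancreas lies against the liver, and its share in the dissected tissue was not tested.

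Between times the effect of HgCl2 could be compared probe by probe. No probe was called for a change of effect between 24 and 8 h in limma's test of the difference (0% of 16340, with 1442 at an unadjusted p under 0.05), 1 probe was between 24 and 48 h (0.00612%, 861 unadjusted) and 17 were between 24 and 96 h (0.104%, 1919 unadjusted). Of those 17, the effect at 24 h minus that at 96 h was positive for 5 and negative for 12. The vitellogenin gene vtg3 was among them with measured effects of -1.54 at 24 h and -5.54 at 96 h, but it was saturated on the control arrays of 24 h, so its 24 h effect has only a bound and no size of the change is read. Named genes that fell less at 24 h than at 96 h were chst6, slc22a23 and tmem266. An effect without a call here is not shown to be the same at both times. The gene mgst3b, for example, had measured effects of -0.23 at 8 h and 2.38 at 24 h without a call. The counts also moved with the processing and with single arrays left out, as given at the end.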

How the data were processed

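Liver RNA was measured on 24 two-colour oligonucleotide arrays, 3 per treatment and time. The deposited scanner files give, per the file headers, the spot and local background intensity of both channels and the percent of pixels above background by 2 SD; the deposited log2 ratio table was made by the authors from background-subtracted means times 1 constant per array, and the lowess normalization stated in the methods was not seen in it. Of 16512 spots per array, 172 beta-actin control spots had weight 0 in loess and were left out. In limma 3.58.1 (R 4.3.3), intensities were corrected by normexp (offset 50) and loess, 8 group means were fitted, and moderated tests were adjusted by Benjamini-Hochberg over 16340 probes. A probe dim or saturated on all arrays of a group has only a bound. Simulated data with known changes were used to test the fit. Of 50 changes at each size, 5 were recovered at 0.5 log2, 33 at 1, 41 at 1.5 and 47 at 2. There were 5 false calls among 16140 unchanged probes. Changes of 1 or less can thus go uncalled. Gene symbols came from the platform annotation and its updates (5916 probes with 1 symbol, 5355 genes).

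Genes were named by rule. They were the 15 largest rises and falls among called genes with no overlap, and genes that the study names and that have a probe. Further ones were up to 4 called genes (or 2 others) per role of each list, and the defining markers of cell types. cldnd, fbp1b, stat3, cebpg and pdia5 were added after their values were seen. The members and lists were chosen with earlier results of these data known. Nothing says that pools came from separate tanks, so p-values measure the spread between these pools. The number of arrays limits the precision, and 3 against 3 arrays cannot go below p = 0.1 in an exact permutation test. Alternatives were background, normalization, dim probes, arrays, block, the methods' t-test and Cy5 alone. Platform IDs with several or no symbol were not named.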

Additional observations from a re-analysis of the deposited data

Results flagged for a closer look

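Each result here was picked because the effect of HgCl2, treated minus control, differed between 24 h and another time in limma's test of the difference (adjusted p under 0.05 over 16340 probes). For the times compared, the treated and control arrays are different at each time. The probe of vtg3 gave measured effects of -1.54 at 24 h and -5.54 at 96 h, a nominal difference of 4.00, but it was saturated on the control arrays of 24 h and has only a bound there, so no size is read from it. Named genes that fell less at 24 h than at 96 h were slc22a23 (-1.82 and -4.55, 2.73), chst6 (-2.1 and -4.64, 2.54) and tmem266 (-1.97 and -4.21, 2.24). Named genes with an effect lower at 24 h were cd74b, an MHC class II invariant chain (-0.58 at 24 h and 1.46 at 96 h, a difference of -2.04), the nuclear envelope gene syne3 (-1.1 and 0.65, -1.75) and the leukocyte actin-bundling gene lcp1 (-0.20 and 1.24, -1.44). One probe without a gene name, 5285553, was lower by 3.44 at 24 h and differed by -3.70 from 48 h and by -3.12 from 96 h, and it was not well above background on the HgCl2 arrays. The other 9 unnamed probes differed from 96 h by 2.69 for 5284715, where only the effect at 96 h was large, and by -2.26, -2.18, -1.75, -1.60, -1.56, -1.45, -1.45 and -1.23 for the rest; the probe at -2.26 was not well above background on the control arrays of 24 h, so its value is nominal, as are those of 5285553. No result was tested for a sample far from its group, since the groups hold 3 arrays.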

How the results depend on the processing

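The 1080 higher and 691 lower calls came to 867 and 529 without background correction, 1004 and 683 with plain subtraction, 1018 and 728 with median centring, 1016 and 559 with arrays scaled, 781 and 454 in the authors' table, 1094 and 655 with array weights, 670 and 270 with the 6 arrays of 24 h alone, 356 and 240 on the 2085 probes above background throughout, and 603 and 583 in the Cy5 channel. The methods' t-test gave 1672 and 1413 unadjusted and 10 and 2 after adjustment. Leaving out 1 array gave 598 to 1394 higher and 339 to 888 lower. Same-numbered arrays did not deviate together (r = 0.0201, 0.0227 and -0.0101), so the numbers do not pair them; the replicate block gave 992 and 577, and 10 changes of effect against 96 h. The changes of effect came to 25 against 8 h in the authors' table and 0 to 61 with 1 array left out (61 without HgCl2 replicate 1), to 0 against 48 h without background correction, in the authors' table and on probes above background, and 0 to 4 with 1 left out, and against 96 h to 7 without background correction, 9 in the authors' table and 6 to 27 with 1 left out. Of the 145 called named genes, 117 stayed called in the authors' table, 90 with the 6 arrays alone, 100 to 139 with 1 array left out, 85 without each array in turn, and 71 in the Cy5 channel, where fads2 (0.21), txndc5 (-0.40), rpl10a (0.24), gadd45ab (0.0278) and frzb (0.024) reversed. The uncalled hepatocyte genes fabp10a (0.24, adjusted p = 0.631) and tfa (0.25, adjusted p = 0.422) reversed with median centring (-0.17 and -0.17) and in the authors' table (-0.19 and -0.16), and tfa with Cy5 alone (-0.0037). The causes were not tested. Of all calls, 67 were below background in a group and 85 had a dim reference on all 6 arrays.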
